A study of Mus musculus with 15 samples.

Results

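The β-crystallins are encoded by 6 genes, Cryba1, Cryba2, Cryba4, Crybb1, Crybb2 and Crybb3, which were taken by name from the 22342 protein-coding genes of the mm9 annotation (chromosomes 1 to 19 and X) and studied over the gene body plus 20 kb on each side. β-Crystallins are structural proteins of the vertebrate lens. Together with the α- and γ-crystallins they fill the cytoplasm of the lens fibre cells, which form as lens epithelial cells leave the cell cycle and elongate, and their dense packing gives the lens its refractive index. Their genes are transcribed mainly in differentiating fibres under factors such as the large Maf proteins, Sox1, Prox1 and Pax6. Pax6 is the paired-domain and homeodomain protein that is required to form the lens. Methylation of lysine 4 of histone H3 marks regulatory DNA: H3K4me1 is typical of enhancers, H3K4me3 of active promoters, and H3K4me2 of both.

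The study mapped these marks by ChIP-seq, in which DNA bound to a protein is recovered with an antibody and sequenced. The cells were αTN4, a mouse lens epithelial line transformed with SV40 T antigen, infected with a lentivirus carrying a control shRNA (control) or a Pax6 shRNA (Pax6 KD) and selected with puromycin as pooled stable populations. The labels do not say which Pax6 shRNA was used, and the methods name the sh2 line for ChIP. Control cells gave lists of regions for Pax6, RNA polymerase II (Pol2), H3K4me1, H3K4me2 and H3K4me3, Pax6 KD cells gave the 3 methylation marks, and whole newborn (P1) lenses of CD-1 mice gave H3K4me2. With 1 library per condition, every value below describes that library, no difference was tested, and intervals cover counting error only. The antibody field of the Pax6 and Pol2 libraries names the other protein in each case, and both were assigned by title, which also gives the source name. In whole lens tissue, a mark present in few cells and a weak mark in all cells cannot be told apart. The RNA libraries were not analysed here, so no level of β-crystallin or Pax6 RNA stands beside these regions.

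The 6 genes lie at 4 loci of 216.299 kb in all. Cryba1 (ENSMUSG00000000724.9, chr11:77532117-77538785, minus strand) and Cryba2 (ENSMUSG00000006546.2, chr1:74936508-74939717, minus strand) each stand alone among β-crystallins. Cryba4 (ENSMUSG00000066975.5, chr5:112675513-112681538, minus strand) and Crybb1 (ENSMUSG00000029343.10, chr5:112684835-112698605, plus strand) are transcribed away from each other from starts 3297 bp apart, so their windows share most of their regions. Crybb2 (ENSMUSG00000042240.8, chr5:113487278-113499137, minus strand) and Crybb3 (ENSMUSG00000029352.8, chr5:113504859-113510604, minus strand) follow 788.673 kb farther along the same chromosome and are 5722 bp apart. In all, 78 regions of the 9 lists overlapped the 4 loci.

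The promoters are shown because the marks described below lie on or beside them, and because they differ in the words that lens factors read. The 6 sequences came from the RefSeq promoter table (GRCm38.p6), each matched the mm9 genome at 1 place, and each is given 5′ to 3′ from 250 bp before the RefSeq start to 10 bp after it. In mm9 they lie at chr11:77538786-77539045 (minus strand), chr1:74939708-74939967 (minus strand), chr5:112681529-112681788 (minus strand), chr5:112684590-112684849 (plus strand), chr5:113499128-113499387 (minus strand) and chr5:113510595-113510854 (minus strand), in the order of the lines. Capitals mark matches, on either strand, to short words named for the factors that read them: the word of the TATA-binding protein (TATAAA), the core of the large Maf site (TGCTGA), a longer (ACAAAG) and a shorter word of Sox proteins (ACAAT), the AP-1 word (TGACTCA) and the word of the factor NF-Y (CCAAT). These words do not contain one another.
Cryba1: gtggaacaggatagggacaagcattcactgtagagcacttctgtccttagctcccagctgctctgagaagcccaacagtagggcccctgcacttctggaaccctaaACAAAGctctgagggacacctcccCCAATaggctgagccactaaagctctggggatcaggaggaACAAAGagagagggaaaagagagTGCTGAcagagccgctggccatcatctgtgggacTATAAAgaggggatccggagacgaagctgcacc
Cryba2: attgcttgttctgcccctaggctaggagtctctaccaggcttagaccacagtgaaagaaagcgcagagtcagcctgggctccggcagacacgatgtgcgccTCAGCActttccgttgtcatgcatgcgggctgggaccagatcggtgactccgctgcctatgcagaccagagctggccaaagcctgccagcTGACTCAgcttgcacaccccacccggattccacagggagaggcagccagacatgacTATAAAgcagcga
Cryba4: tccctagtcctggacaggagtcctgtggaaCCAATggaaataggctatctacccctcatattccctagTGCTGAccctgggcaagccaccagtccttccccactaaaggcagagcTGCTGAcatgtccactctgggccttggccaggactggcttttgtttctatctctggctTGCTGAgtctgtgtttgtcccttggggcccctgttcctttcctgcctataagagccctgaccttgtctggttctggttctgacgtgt
Crybb1: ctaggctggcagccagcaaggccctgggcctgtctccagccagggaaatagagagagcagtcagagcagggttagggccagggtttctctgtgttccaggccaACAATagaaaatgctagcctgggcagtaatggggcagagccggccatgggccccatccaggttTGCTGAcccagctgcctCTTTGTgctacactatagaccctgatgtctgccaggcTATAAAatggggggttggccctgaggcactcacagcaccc
Crybb2: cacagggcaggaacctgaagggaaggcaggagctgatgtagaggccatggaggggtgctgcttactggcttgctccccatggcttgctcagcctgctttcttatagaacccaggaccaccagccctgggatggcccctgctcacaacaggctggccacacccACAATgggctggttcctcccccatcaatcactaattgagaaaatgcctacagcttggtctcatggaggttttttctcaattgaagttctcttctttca
Crybb3: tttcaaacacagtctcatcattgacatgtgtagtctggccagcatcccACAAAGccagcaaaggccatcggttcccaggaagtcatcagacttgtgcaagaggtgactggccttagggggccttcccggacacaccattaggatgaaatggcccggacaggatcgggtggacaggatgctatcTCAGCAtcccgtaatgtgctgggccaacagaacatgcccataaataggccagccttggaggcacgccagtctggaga

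The Maf word TGCTGA was found in the 300 bp promoters of 5 of the 6 genes, against 19.5% of 32851 promoters of the table. Crybb2 was the gene without it. The Cryba4 promoter held 3 copies, whose first bases lie at -182, -135 and -77 from the start. Crybb1 held a copy at -84 beside the Sox word on the opposite strand at -67. The Sox word ACAAAG was present in Cryba1, Crybb1 and Crybb3, against 18.7% of promoters. Cryba2 was the only member with the AP-1 word, at -59, against 5.20% of promoters. In Cryba2 that word sits inside the palindrome GCTGACTCAGC, the core of the full site of large Maf proteins, which only 15 of the 32851 promoters held (0.0457%). The palindrome was looked for after the Cryba2 sequence had been seen. TATAAA was present in Cryba1 (-23), Crybb1 (-30) and Cryba2 (-3), and 13.6% of promoters held it. A first base between -40 and -20, where a TATA box acts, was found in Cryba1 and Crybb1 and in 1.99% of promoters. CCAAT was found in Cryba1, Cryba4 and Crybb1 (37.4% of promoters), ACAAT in Crybb1 and Crybb2 (31.0%), and the GC box GGGCGG in no member (35.7%). The Crybb1 copy of CCAAT lies downstream of the start, at +20, past the end of the printed sequence. CpG was below the median of all promoters, 7 in 300 bp, in 5 of the 6 members. Crybb2 had 0 CpG in 300 bp, Cryba4 1, Crybb1 2, Cryba1 4 and Crybb3 6, while Cryba2 had 15. Their GC content, 50.7% to 59.3%, was near the median of 52.7%. The Crybb2 values are for its outer start. The 300 bp at its inner annotated start, where a lens peak lies (below), held 7 CpG at 57% GC. These matches describe letters in a window and do not show binding.

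In newborn lens, 5 of the 6 genes had an H3K4me2 peak within 2 kb of an annotated transcription start, all but Cryba1, and all 6 had a peak within their window. The same was true of 66.8% of protein-coding genes at the start and of 79.4% in the window. In control αTN4 cells, H3K4me2 was at the start of 3 genes, Cryba2, Cryba4 and Crybb1 (58.2% of genes), and of the same 3 in Pax6 KD cells (57.1%). Over the whole window the control peaks were again at these 3 genes, against 78% of genes. Pol2, the enzyme that transcribes these genes, was listed at the start of 0 of the 6 genes in control cells, against 48% of genes. H3K4me3 was at 0 of 6 starts in control cells (49.1% of genes) and at 0 of 6 in Pax6 KD cells (47.8%). Pax6 was at 0 of 6 starts (0.255% of genes). H3K4me1 was at 3 starts in control cells, Cryba2, Cryba4 and Crybb1 (36% of genes), and at 3 in Pax6 KD cells, Cryba1, Cryba4 and Crybb1 (16.8%). In each condition, Cryba4 and Crybb1 were called through the same H3K4me2 peak and the same H3K4me1 island, so they are not separate observations. A region that is not listed did not pass the caller's threshold, and at an unknown depth this does not show that the mark was absent.

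**Figure D1:**
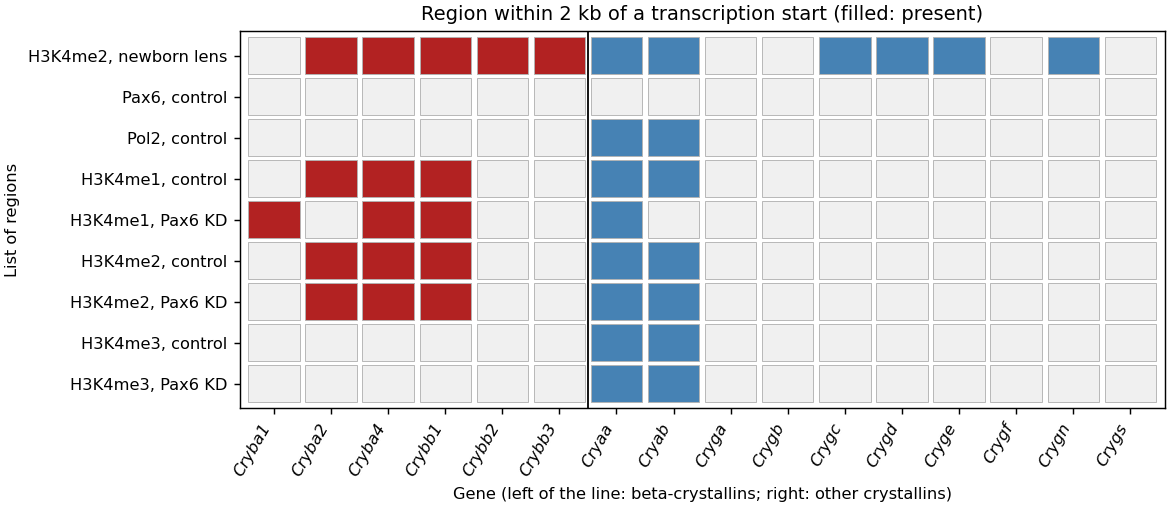
Presence (filled) or absence (grey) of a region within 2 kb of a transcription start, with the 9 lists as rows and genes as columns, β-crystallins in red and the 10 other crystallins in blue. The Pol2, Pax6 and H3K4me3 rows are empty for all 6 β-crystallins, and only the newborn lens row is filled for Crybb2 and Crybb3.

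The members therefore fell into 4 patterns. Cryba4 and Crybb1 had lens H3K4me2 and both H3K4me1 and H3K4me2 in control and Pax6 KD cells, a pattern shared by 195 of all genes (0.873%). Cryba2 differed from them by the lack of H3K4me1 in Pax6 KD cells, as did 212 genes (0.949%). Crybb2 and Crybb3 had the lens peak alone, as did 2280 genes (10.2%), among them the γ-crystallins Crygc, Crygd, Cryge and Crygn. Cryba1 had H3K4me1 of Pax6 KD cells alone, as did 59 genes (0.264%). H3K4me2 in control cells with neither Pol2 nor H3K4me3 at the start was the state of 3 members, Cryba2, Cryba4 and Crybb1, and of 7.77% of genes. Lens H3K4me2 without control H3K4me2 at the start was the state of 2 members, Crybb2 and Crybb3, and of 11.7% of genes.

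Among the 10 other crystallin genes, 6 had lens H3K4me2 at the start, 2 had control H3K4me2, 2 had Pol2 and 2 had H3K4me3. The 2 genes with Pol2, Cryaa and Cryab, encode the α-crystallin chaperones and carried all 4 of these marks, which no β-crystallin did. Of 10 lens fibre genes, 8 had lens H3K4me2, 3 had control H3K4me2 and 0 had Pol2 or H3K4me3, the same order of counts as in the β-crystallins. Of 9 lens transcription factor genes, 9 had lens H3K4me2, 8 control H3K4me2, 7 Pol2 and 8 H3K4me3. As a check on the tissue, lens H3K4me2 was at the start of all 4 lens epithelium markers, 2 of 4 retina markers and 2 of 3 pigmented epithelium markers. It was at 0 of 2 cornea markers and at both Col2a1 and Vim, against the 66.8% of all genes. Vim also had Pol2, H3K4me2 and H3K4me3 at its start in control cells, a lens line, so it does not set other tissue apart from lens. The part of other eye tissue in the lens peaks was not tested. In control cells, H3K4me2 was at the start of 1 of the 4 epithelium markers, and Pol2 at the same number.

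The amount of DNA covered followed the same grouping. Lens H3K4me2 covered 21.1% of the Cryba4 window and 16.2% of the Crybb1 window. It covered 9.86% at Cryba2, 4.65% at Crybb2, 4.48% at Crybb3 and 1.43% at Cryba1, against a median of 4.30% over all genes. Cryba4 and Crybb1 thus stood at percentiles 95.9 and 91.8 of all genes, Crybb2 and Crybb3 near the middle (52.6 and 51.3), and Cryba1 low (27.8). In control cells, H3K4me2 covered 36.9% of the Crybb1 window (percentile 99.2), 24.7% of Cryba4 and 6.84% of Cryba2, and none of the other 3 windows, against a median of 4.90%. In Pax6 KD cells the shares were 34.4%, 21.9% and 5.41%, with a median of 4.31%. Neighbouring genes add to these windows, above all Tpst2, a tyrosylprotein sulfotransferase gene downstream of Crybb1, and the non-coding RNA gene Miat beyond Cryba4.

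**Figure D2:**
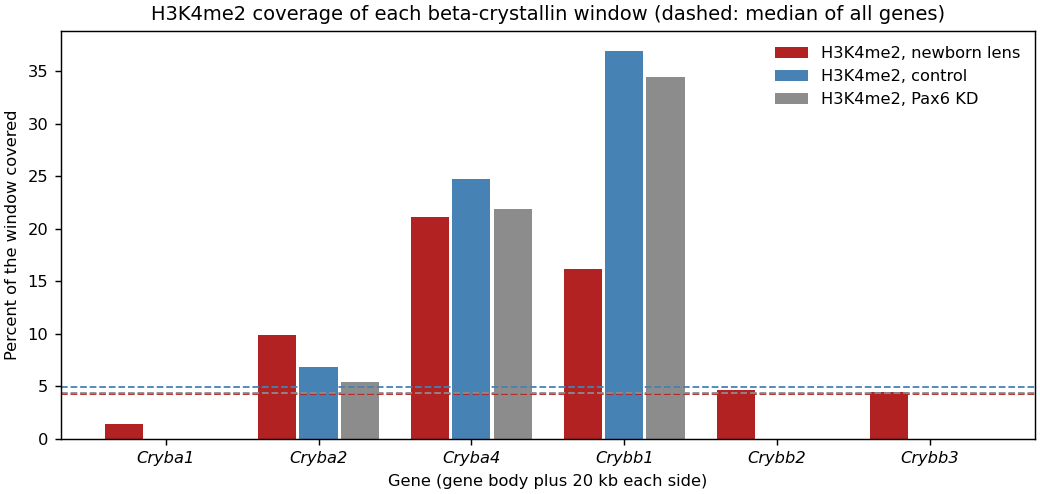
Percent of each β-crystallin window (gene body plus 20 kb on each side) covered by H3K4me2 peaks of newborn lens, control cells and Pax6 KD cells, with dashed lines at the median of all protein-coding genes. Cryba4 and Crybb1 lie far above the lines in all 3 libraries, while Cryba1, Crybb2 and Crybb3 have lens bars only.

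The lens peaks at these genes were weak beside the rest of their list. The 27 lens peaks at the 4 loci had a median fold enrichment over background of 4.74 and a median width of 495 bp, against 6.58 and 709 bp for all 56214 lens peaks. The percentile of a peak is the share of its own list with an equal or lower fold. The strongest peak of each window was at percentile 37.1 for Cryba1, 67.9 for Cryba2, 83.6 for Cryba4, 92.1 for Crybb1 and 46.4 for Crybb2 and Crybb3, which share it. The highest of these lay at other genes. The Crybb1 value came from a peak over the start of Tpst2 (fold 26.3), the Cryba4 value from a peak over Miat (fold 22.1) and the Cryba2 value from a peak at the miRNA gene Mir375 (fold 13.2). Leaving out peaks within 2 kb of the start of another gene, the strongest peaks were at percentiles 37.1 (Cryba1), 55.9 (Cryba2), 59.2 (Cryba4 and Crybb1, shared) and 46.4 (Crybb2 and Crybb3). Of the 27 lens peaks, 10 overlapped a control H3K4me2 peak (37.0%, 95% Wilson interval 21.5% to 55.8%), against 45.4% of all lens peaks. All 10 were at 2 loci, 8 of the 13 lens peaks at Cryba4 and Crybb1 and 2 of the 6 at Cryba2. They include peaks over Miat, at the Tpst2 start and beyond Fev, so not all lie at the β-crystallin genes themselves. The overlap was 0 of 2 at Cryba1 and 0 of 6 at Crybb2 and Crybb3. Conversely, 8 of the 15 control peaks overlapped a lens peak (53.3%, 30.1% to 75.2%), against 41.3% of all control peaks. These control peaks too include some at Miat, at Tpst2 and beyond Fev.

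Cryba4 and Crybb1 formed the richest locus, with 13 lens H3K4me2 peaks, 12 control and 14 Pax6 KD H3K4me2 peaks, 7 Pol2 peaks and 1 Pax6 peak. H3K4me1 islands covered 89.3% of the Crybb1 window and 72.0% of the Cryba4 window in control cells, percentiles 99.98 and 99.7 of all genes, whose median was 5.07%. A single control island of 24.8 kb, chr5:112680201-112705000, held 849 reads. It ran from inside Cryba4, across both starts and all of Crybb1, to just short of Tpst2. In Pax6 KD cells the islands covered 80.3% of the Crybb1 window and 65.5% of the Cryba4 window, percentiles 99.93 and 99.7 of all genes. The median of all genes was 0% in the Pax6 KD list, which held 18417 islands against 38007 in the control list. Most of the DNA between the starts, and the Crybb1 start itself, lay under 1 broad H3K4me2 peak, of 3300 bp in control cells (chr5:112682268-112685567, percentile 48.6) and 3303 bp in Pax6 KD cells (chr5:112682217-112685519, percentile 54.2). In lens the same stretch held 3 smaller peaks of folds 4.74, 4.48 and 5.003, the last just inside the Crybb1 gene. A further one, of 201 bp and fold 3.63, lay in an intron of Cryba4. None of the 7 Pol2 peaks lay at either start.

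**Figure D3:**
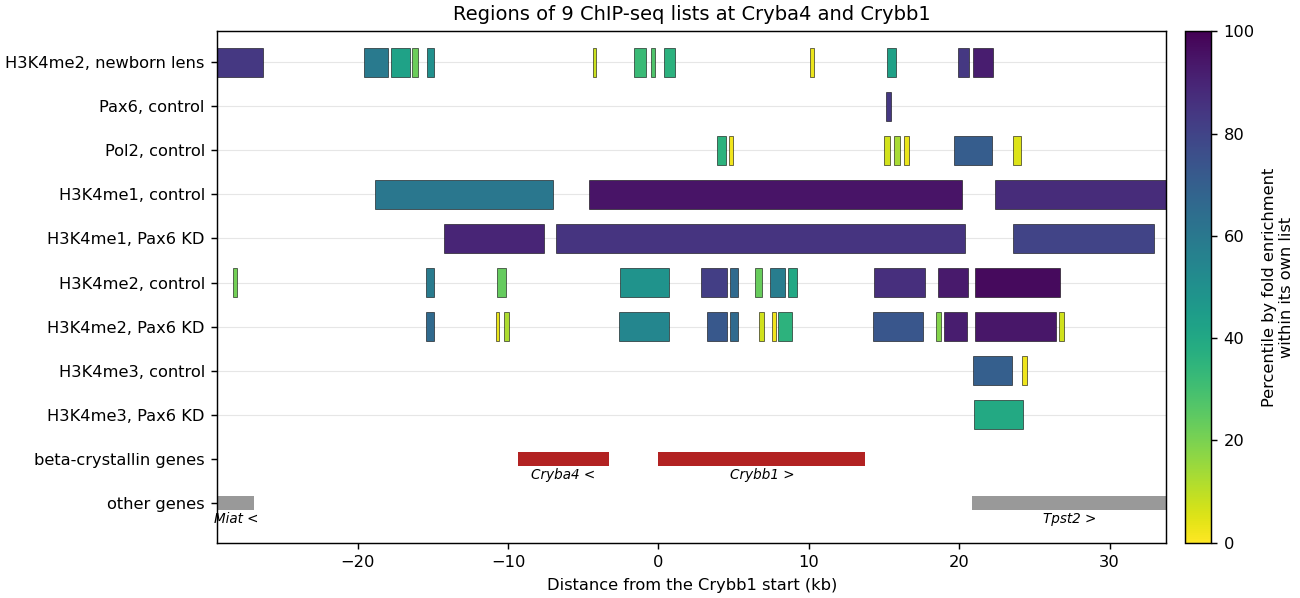
Regions of the 9 lists at Cryba4 and Crybb1 against the distance from the Crybb1 start in kb, each box drawn to scale and coloured by its percentile by fold within its own list, with β-crystallin genes in red and other genes in grey (the arrowhead gives the direction of transcription). The single Pax6 box lies 15.359 kb to the right of the Crybb1 start, above boxes of Pol2, H3K4me1 and H3K4me2 and with no H3K4me3 box, and the Pol2 boxes begin inside Crybb1 and not at its start.

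Within Crybb1, control cells had a run of 5 H3K4me2 peaks between chr5:112687642 and chr5:112694032. The first, chr5:112687642-112689383, was the strongest, with fold 15.5 (percentile 81.7). A Pol2 peak, chr5:112688743-112689350, lay over its end with fold 6.85 (−log10 q 14.4, percentile 35.7), and a smaller Pol2 peak of fold 3.36 followed at chr5:112689510-112689765. Both Pol2 summits are in an intron of Crybb1, the first 4.334 kb downstream of the gene's start. This site had no lens H3K4me2 peak. Apart from the peak just inside its start, the only lens peak in the gene was chr5:112694917-112695175, of fold 3.20. No H3K4me3 peak of either condition overlapped the Crybb1 gene.

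The only Pax6 peak in any β-crystallin window was chr5:112699972-112700297, 326 bp wide, which lies between Crybb1 and Tpst2, 1.367 kb past the end of Crybb1. It counts for both Crybb1 and Cryba4, 2 of the 6 genes, against 2.09% of genes with a Pax6 peak in the window. Its fold was 9.62 (−log10 q 16.9), percentile 83.7 of the 504 Pax6 peaks. Its summit is 15.359 kb downstream of the Crybb1 start and 5517 bp before the Tpst2 start, so the nearest gene start is that of Tpst2. The lists do not assign the peak to a gene. It overlapped a Pol2 peak (fold 3.91, percentile 6.85) with a summit 10 bp away, a lens H3K4me2 peak (chr5:112700049-112700643, fold 5.57) with a summit 179 bp away, H3K4me2 peaks of control and Pax6 KD cells and the H3K4me1 islands of both, and no H3K4me3 peak. A Pol2 peak was overlapped by 19.4% of Pax6 peaks, and Pol2, control H3K4me1 and H3K4me2 and lens H3K4me2 together by 7.54% (38 of 504). For the other 4 genes the nearest Pax6 peak was 786.981 kb (Crybb2), 804.562 kb (Crybb3), 1571.96 kb (Cryba1) and 2945.06 kb (Cryba2) from the gene. Pol2 was likewise in the windows of Cryba4 and Crybb1 only, against 61.4% of genes.

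The 201 bp centred on the Pax6 summit, chr5:112700094-112700294 (plus strand), are given here because this is the single site of these loci with Pax6. Capitals mark GCGTGAA, the reverse complement of TTCACGC, which is the core read by the Pax6 paired domain.
Pax6 summit: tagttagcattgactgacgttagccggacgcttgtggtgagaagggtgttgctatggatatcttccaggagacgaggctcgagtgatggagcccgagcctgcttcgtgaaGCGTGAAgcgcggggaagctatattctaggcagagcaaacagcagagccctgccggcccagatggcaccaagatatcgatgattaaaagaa

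The word begins 10 bp after the summit. It was present in 4.37% of the 201 bp windows at the 504 Pax6 summits, in 1.03% of those at lens H3K4me2 summits and in 1.26% of promoters, and in none of the 6 β-crystallin promoters. The window held 12 CpG, a count that was not compared with other Pax6 summit windows.

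At Cryba2, lens and αTN4 cells shared H3K4me2 over the start, and the αTN4 peaks ranked higher. The lens peak, chr1:74938883-74940311, had fold 7.90 (percentile 55.9). The control peak, chr1:74938654-74940995, had fold 18.2 (percentile 88.4), and the Pax6 KD peak, chr1:74938670-74940697, fold 24.3 (percentile 95.1). By −log10 q the control and Pax6 KD peaks stood in the other order (96.2 and 94.7). Folds of different lists are not on 1 scale, so lists are compared by percentile. A second peak upstream was at percentile 48.8 in control cells and 56.0 in Pax6 KD cells, and was not on the lens list. A control H3K4me1 island, chr1:74938601-74942000, covered the same start with 74 ChIP reads against 61 input reads (fold 2.58, percentile 20.7) and overlapped no Pax6 KD island. Of all control islands with 60 to 90 reads, 52.6% overlapped a Pax6 KD island. No Pol2, Pax6 or H3K4me3 region was listed anywhere in the Cryba2 window. The other lens peaks of the window lay upstream, at Mir375, and downstream, at the transcription factor gene Fev, where the strongest had fold 12.1.

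**Figure D4:**
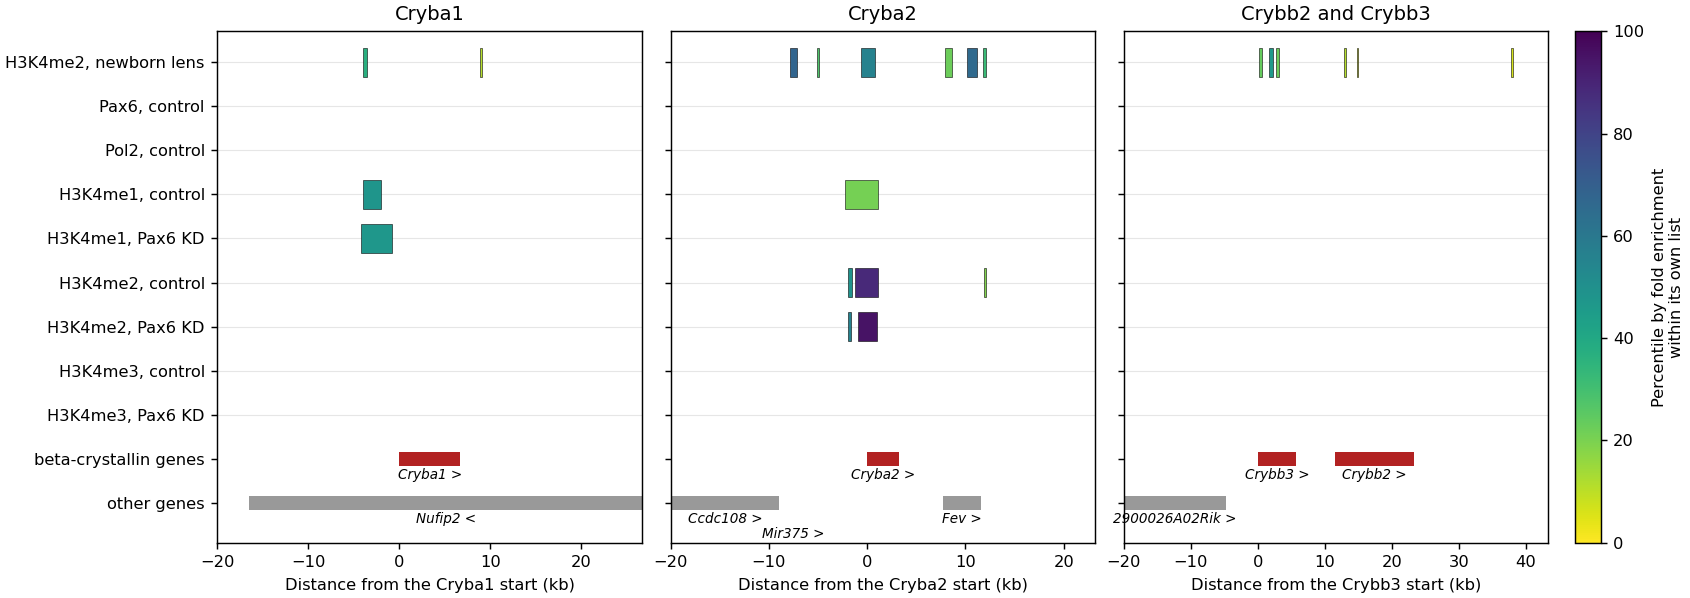
Regions of the 9 lists at Cryba1, at Cryba2 and at Crybb2 and Crybb3 against the distance from the start of Cryba1, Cryba2 or Crybb3 in kb, each box coloured by its percentile by fold within its own list, with genes transcribed in the direction of the arrowheads. Cryba2 carries H3K4me2 of all 3 libraries over its start, and only the lens row has boxes at Crybb2 and Crybb3.

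Cryba1 had the least H3K4me2. The annotation places the gene and most of its window within Nufip2, on the opposite strand, and both lens peaks of the window are in an intron of Nufip2. The stronger, chr11:77542365-77542831, had fold 5.20 (−log10 q 9.62), with its summit 3.897 kb upstream of the Cryba1 start. The weaker, chr11:77529694-77529894, lay downstream of the gene with fold 3.69. Neither αTN4 library had an H3K4me2 peak in the window. The upstream lens peak overlapped an H3K4me1 island in control cells (chr11:77540801-77542800, 42 ChIP and 26 input reads) and in Pax6 KD cells (chr11:77539601-77543000, 62 and 39 reads). The edge of the control island is 2016 bp from the start and that of the Pax6 KD island 816 bp, so the entry of Cryba1 among the genes with H3K4me1 in Pax6 KD cells alone rests on the 2 kb limit. The 201 bp at the summit of the upstream lens peak, chr11:77542582-77542782 (plus strand), are shown as the strongest lens-marked site of a gene with no H3K4me2 at its start. None of the words searched was found in it.
Cryba1 upstream lens summit: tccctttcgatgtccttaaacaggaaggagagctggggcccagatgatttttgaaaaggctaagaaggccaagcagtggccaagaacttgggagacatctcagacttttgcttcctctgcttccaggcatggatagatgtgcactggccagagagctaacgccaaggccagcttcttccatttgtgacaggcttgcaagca

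Crybb2 and Crybb3, which encode abundant basic β-crystallins, had 6 lens H3K4me2 peaks over their joint 63.327 kb and no region of the other 8 lists. Lens H3K4me2 with nothing else in the window was the state of these 2 members and of 5.22% of genes. At Crybb3, the peak chr5:113509963-113510439 lay just inside the gene's start with fold 4.30, and 2 further peaks followed within the gene, of which chr5:113508355-113508901 was the strongest of the locus (fold 6.06, −log10 q 11.3). At Crybb2, the peak chr5:113497436-113497777 had fold 3.69 (−log10 q 4.04, percentile 11.3) and lay at an inner annotated start (position 113497786), not at the outer start at 113499137 whose promoter is shown above. With peaks of −log10 q under 5 left out, Crybb2 was no longer among the genes with lens H3K4me2 at the start. The remaining 2 peaks, within and downstream of Crybb2, both had fold 3.42.

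Control and Pax6 KD cells could be set side by side at the 3 loci with αTN4 regions. Of the 15 control H3K4me2 peaks at the β-crystallin loci, 13 overlapped a Pax6 KD peak (86.7%, 62.1% to 96.3%), against 82.5% of all control peaks. The 2 without one were weak, a 207 bp peak of fold 4.15 beyond Fev and a 243 bp peak of fold 4.26 in Miat. At this overlap of at least 1 bp, no control peak on a β-crystallin gene or start was without a Pax6 KD peak. With at least 50% of the control peak covered, 66.7% of the 15 were kept. The share of all control peaks under this stricter rule is not given here, so the 66.7% has no comparison. The Crybb1 peaks chr5:112691235-112691705 and chr5:112693433-112694032 were then among those not kept. All 16 Pax6 KD peaks of the loci overlapped a control peak. Over the 13 kept peaks, the percentile by fold changed by a median of -3.81 points from control to Pax6 KD (5 higher, 8 lower, -22.4 to 7.17). That median is the value of the peak chr5:112705909-112711560 in Tpst2. Over all 54644 kept peaks the median was -1.62 points (23528 higher, 31116 lower). Ordered by −log10 q, the median was -3.20 points (5 higher, 8 lower), against -1.48 points over all kept peaks (23253 higher, 31391 lower). At the starts the direction depended on the order used. The Cryba2 start peak was at percentile 88.4 in control and 95.1 in Pax6 KD cells by fold and at 96.2 and 94.7 by −log10 q, and the peak over the Crybb1 start at 48.6 and 54.2 by fold and at 55.3 and 52.1 by −log10 q. Inside Crybb1, 4 of the 5 peaks had lower percentiles by fold and 3 by −log10 q. The strongest intronic peak was at percentile 81.7 in control and 72.9 in Pax6 KD cells by fold (79.2 and 71.1 by −log10 q), and the peak chr5:112692262-112693233 at 57.9 and 35.6 (56.1 and 40.7). Where more than 1 Pax6 KD peak overlapped a control peak, the strongest was used. The Pax6 KD peak chr5:112692804-112693719 thus served for both chr5:112692262-112693233 and chr5:112693433-112694032, so their changes are not separate. The peak over the Pax6 site, chr5:112699180-112702594, was at 86.4 and 73.3 by fold and at 83.6 and 77.5 by −log10 q. The control and Pax6 KD lists were called separately, with 66274 and 65852 peaks, and none of these shifts in rank was tested.

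Of the 5 control H3K4me1 islands, 4 overlapped a Pax6 KD island (80.0%, 37.6% to 96.4%), against 46.2% of all control islands. Island size differs, since of control islands with 200 or more reads 98.8% were kept and of those with under 100 reads 32.9%. The 3 islands at Cryba4 and Crybb1 had 243, 849 and 698 reads, and the Cryba1 island 42. The 24.8 kb island over Crybb1 had 34.2 reads per kb in control cells and 23.2 in Pax6 KD cells, where the overlapping island was 27.2 kb long with 632 reads. The median log2 change of all 17559 kept islands was -0.315. Relative to that median, the log2 change of the Crybb1 island was -0.24 (counting interval -0.39 to -0.09), and 23.1% of kept islands changed by that or a lower value. The Tpst2 island had 29.1 and 21.2 reads per kb (-0.14, -0.31 to 0.03). The island downstream of Cryba4 had 243 reads over 11.8 kb in control cells and 147 reads over 6.6 kb in Pax6 KD cells, so the narrower Pax6 KD island held fewer reads at a density of 22.3 against 20.6 reads per kb (0.43, 0.12 to 0.73). The Cryba1 island had 21.0 and 18.2 reads per kb (0.11, -0.48 to 0.71). Each density is over the island as called in its own library, so it moves with the island's width as well as with its reads. Relative instead to the estimated ratio of library sizes, all 4 changes were below 0, -0.69 over Crybb1, -0.59 at Tpst2, -0.33 at Cryba1 and -0.02 downstream of Cryba4, so the direction at the last 2 depends on the scaling. These changes came from 1 library per condition and were not tested.

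**Figure D5:**
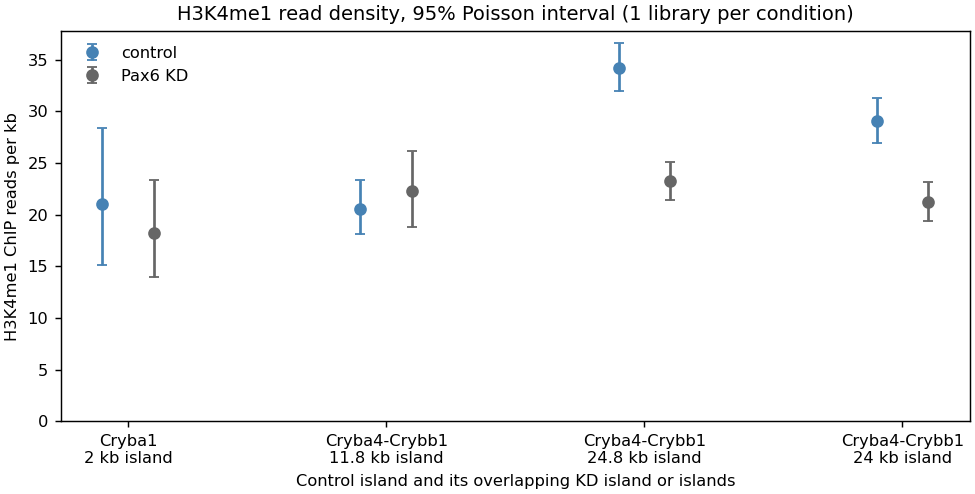
H3K4me1 ChIP reads per kb, from the deposited counts and not scaled, for each kept control island of the β-crystallin loci over its own width (blue) and for the Pax6 KD island or islands that overlap it over theirs (grey), with 95% Poisson intervals that cover counting error only. The 24.8 kb island over Crybb1 went from 34.2 to 23.2 reads per kb and the 24 kb island at Tpst2 from 29.1 to 21.2, while the intervals overlap at the other 2 islands. These unscaled values include the shift of the whole list, whose kept islands had a median log2 change of -0.315. Relative to that median, the interval of the Tpst2 island (-0.31 to 0.03) spans 0.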

How the data were processed

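ChIP-seq region lists of αTN4 control cells (5 lists), Pax6 KD cells (3 lists) and newborn lens (1 list) were used. Reads had been mapped by the authors with Bowtie to mm9, and they called Pax6, Pol2, H3K4me2 and H3K4me3 peaks with MACS2 and H3K4me1 islands with SICER at default settings, and removed blacklisted regions; versions are not given in the sources used here. For MACS2 peaks the authors deposited a fold over background and the −log10 of p and q. For SICER islands they deposited the count of ChIP and control reads (called input reads here), a fold ratio, a p-value and an FDR. That control library is not named. Peak names in the control H3K4me2 list hint at pooled replicates. How deeply the MACS2 libraries were sequenced is unknown.

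Regions were assigned to a gene by an overlap of at least 1 bp with its body plus 20 kb, or with 2 kb on each side of a start of GENCODE vM1 protein-coding transcripts, and compared with all 22342 protein-coding genes. The percentile of a region is the share of its list with an equal or lower fold. H3K4me1 change is the log2 ratio of reads per kb. The calls, tested on simulated data, were made with Python 3.11.15, pandas 2.3.3, NumPy 2.4.6 and SciPy 1.17.1. Intervals are 95%: Wilson for shares, exact Poisson for reads per kb, and exact binomial for the log2 changes in H3K4me1 read density. The named genes were the 6 members, the genes of their windows and lists of lens and eye genes; members and lists were chosen with earlier results of these data known. The palindrome and the TTCACGC word were added after the data were seen.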

Additional observations from a re-analysis of the deposited data

How the results depend on the processing

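Counting peaks over the gene bodies alone left 9 lens peaks in place of 27. By −log10 q in place of fold, the median percentile of the strongest lens peaks was 56.1 in place of 57.1, and without peaks within 2 kb of another gene's start, an alternative added after seeing the data, it was 51.2. Relative to the library-size ratio, the median log2 change in H3K4me1 read density over the 4 kept islands was -0.46 in place of -0.02, and the sign turned at Cryba1 (-0.33 in place of 0.11) and downstream of Cryba4 (-0.017 in place of 0.43). Ordered by −log10 q, also added after seeing the data, the change in percentile from control to Pax6 KD turned sign at 4 of 13 kept H3K4me2 peaks: the Cryba2 start (-1.52 in place of 6.75), the Crybb1 start (-3.20 in place of 5.59), chr5:112693433-112694032 in Crybb1 (0.905 in place of -4.38) and chr5:112703418-112705454 before Tpst2 (0.595 in place of -1.09). The start counts of Pol2 and H3K4me3 were 0 under each alternative run. Those alternatives (within 1 kb of a start, and −log10 q of at least 5) were stricter than the reported setting, so the counts could not rise. No paired analysis was possible because each condition has 1 library and no test was made. Unknown depth limits what an unlisted region shows.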
